A study of Arabidopsis thaliana with 4 samples.

Results

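The genes described here are the ethylene receptors of Arabidopsis thaliana and the core of the pathway that carries their signal, 10 genes chosen by their locus identifiers from 33664 features. They are the receptor genes *ETR1* (AT1G66340), *ERS1* (AT2G40940), *ETR2* (AT3G23150), *ERS2* (AT1G04310) and *EIN4* (AT3G04580), the kinase gene *CTR1* (AT5G03730), the transducer gene *EIN2* (AT5G03280), the transcription factor gene *EIN3* (AT3G20770), and the F-box genes *EBF1* (AT2G25490) and *EBF2* (AT5G25350). All 10 were found, and all 10 reached at least 1 FPKM in all 4 libraries. FPKM, the deposited unit, is the number of sequenced fragments per kilobase of gene length and relative to the library total, so levels of different genes can be set side by side. The values come from poly(A) RNA of whole Col-0 seedlings, 9 days old, kept on MS medium at 23 ± 2 °C with 16 h of light a day. One genotype is wild type and the other carries trm4b-4, an allele of the RNA 5-methylcytosine methyltransferase gene *TRM4B* that the genotype field spells tm4b-4, with 2 libraries each. No treatment with ethylene or its precursor is named.

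Ethylene is a gaseous plant hormone that acts on seedling growth, fruit ripening, senescence and defence. Its receptors sit in the endoplasmic reticulum membrane and act as brakes: without ethylene they keep the Raf-like kinase CTR1 active, and CTR1 phosphorylates EIN2 and holds it inactive. When ethylene binds, part of EIN2 is released, moves to the nucleus and also represses translation of the *EBF1* and *EBF2* messages. EBF1 and EBF2 are the substrate-binding parts of SCF ubiquitin ligases that send EIN3 and its relative EIL1 to degradation, and *EBF2* is itself induced by EIN3, which closes a feedback loop.

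The libraries held 26390263 and 23782269 fragments for wild type replicates 1 and 2, and 21931590 and 23068982 for trm4b-4 replicates 1 and 2. Replicates resembled each other more than they resembled the other genotype: the mean chi-square over genes was 1.71 for the wild-type pair, 1.57 for the trm4b-4 pair and 26.8 to 28.4 for pairs of unlike genotype. The medians lay closer together, at 0.623, 0.610 and 2.50 to 2.59 in the same order. *TRM4B* (AT2G22400), the gene named by the allele, stood at 29.7 and 28.9 FPKM in wild type and at 86.3 and 87.1 FPKM in those labelled trm4b-4 (log2 change 1.53, SE 0.03, limma adjusted p = 2.4e-08). It was therefore higher where the label names a mutation of it. A value per gene cannot tell which stretch of the transcript was read, and every direction below refers to the label. Both roots and leaves were represented, with the endodermis gene *CASP1* at 22.4 to 25.6 FPKM and the Rubisco gene *RBCS1A* at 7341 to 7857 FPKM. Nothing states that replicates were grown as separate cultures, and p-values then cover only the spread of these libraries, which could be technical. In whole seedlings a smaller share of cells that express a gene and less RNA per cell cannot be told apart.

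Of the 10 genes, 3 were higher in the libraries labelled trm4b-4, *EBF1*, *EIN2* and *EBF2*, and none was called lower. By limma at an adjusted p below 0.05, 34.3% of 19027 tested genes were called in either direction, 19.2% higher and 15.1% lower, so 3 of 10 is a share near that of all tested genes. *EBF1* rose 1.44-fold, *EIN2* 1.13-fold and *EBF2* 1.10-fold in mean FPKM. Without wild type replicate 1 only *EBF1* was called, and without any other single library *EBF1* and *EIN2* were. The median log2 change of the 10 was 0.01 and that of all tested genes 0.03, and the median absolute change was 0.10 against 0.14. Levels in wild type and trm4b-4 did not overlap for 9 of the 10 genes, 5 higher and 4 lower. The same held for 68.4% of all tested genes, 39.4% higher and 29.0% lower, so separation of 2 against 2 libraries was common. An exact permutation test of a single value with 2 libraries against 2 cannot give a two-sided p below 0.333, and tests were therefore taken from the fit across all genes.

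**Figure D1:**
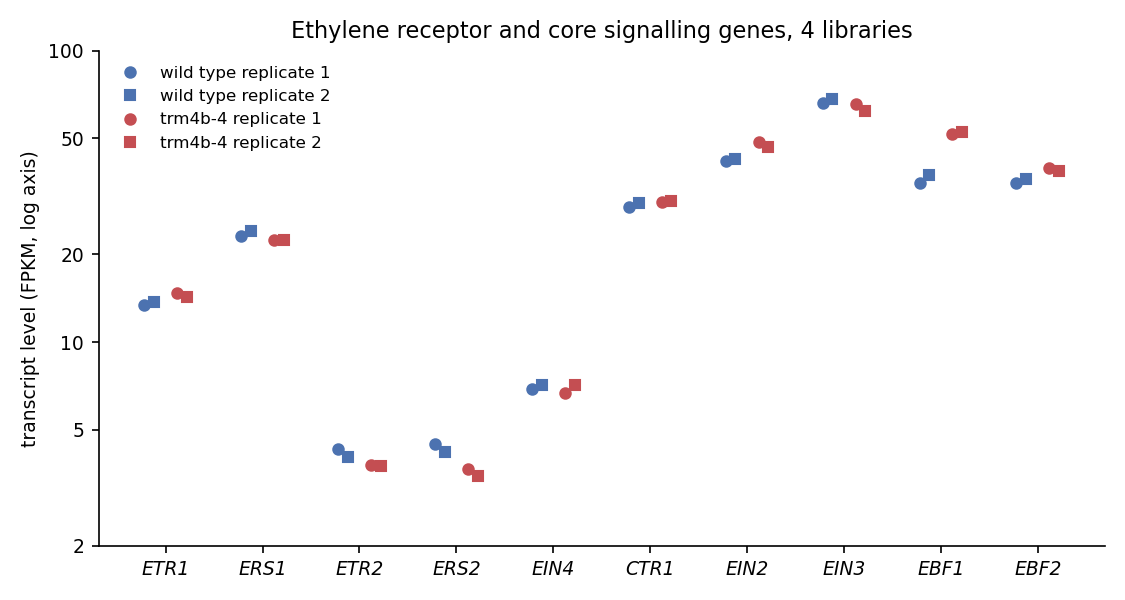
Transcript level of each of the 10 genes in FPKM on a log axis, with 1 point for each library (blue, wild type; red, trm4b-4; circle, replicate 1; square, replicate 2). *EBF1* shows the widest gap between genotypes, from 35.2 and 37.5 FPKM to 52.0 and 52.5 FPKM, and the receptor genes *ETR2* and *ERS2* are the lowest.

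*EBF1* (chromosome 2, 10847375 to 10850797 in TAIR10.1, minus strand), the F-box gene whose protein removes EIN3 mainly in the absence of ethylene, was at 35.2 and 37.5 FPKM in wild type and at 52.0 and 52.5 FPKM in those labelled trm4b-4. Both trm4b-4 libraries lay above both wild-type libraries, and the gap between genotypes was far wider than the gap between replicates. The means were 36.4 ± 1.64 and 52.2 ± 0.355 FPKM (SD, n = 2 each), with a log2 change of 0.51 (SE 0.04, 95% interval 0.42 to 0.61, limma adjusted p = 4.51e-05). A rise of this size or more was called for 628 of the tested genes, which is 3.30%. The gene was read with 2488 to 3374 fragments per library, so counting alone gives an error of 1.72% to 2.00% of each value. The wild-type replicates differed by 6.38% of their mean and the trm4b-4 replicates by 0.96%.

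*EBF2* (chromosome 5, 8794252 to 8797349, minus strand), the F-box gene induced by ethylene, was at 35.2 and 36.2 FPKM in wild type and at 39.7 and 38.6 FPKM in those labelled trm4b-4. The groups did not overlap, but they lay close together. The means were 35.7 ± 0.683 and 39.1 ± 0.722 FPKM (SD, n = 2 each), a log2 change of 0.13 (SE 0.04, 95% interval 0.04 to 0.22, limma adjusted p = 0.0329). The call was lost without any single library in turn, with log2 changes between 0.11 and 0.15, and adjusted p between 0.0544 and 0.157. The annotation of TAIR10.1 places AT5G25340 on the opposite strand across 533 bases of *EBF2* and AT5G03965 across 187, and the strand setting of the counting is not given in the sources used here. AT5G25340 was listed at 0.0286 FPKM in wild type replicate 1 and at 0 in the other 3 libraries, and AT5G03965 was not analysed here.

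The balance between the paired F-box transcripts differed between genotypes by more than the spread between replicates. In wild type *EBF1* and *EBF2* were level, with an *EBF2* to *EBF1* ratio of 1.00 and 0.964. In the libraries labelled trm4b-4 the ratio was 0.763 and 0.736. The mean went from 0.982 ± 0.0255 to 0.749 ± 0.0189 (SD, n = 2 each), and the groups did not overlap. Such separation held for 68.4% of all tested genes taken singly, and ratios of gene pairs outside the 10 were not examined. The ratio restates the rises of 1.44-fold for *EBF1* and 1.10-fold for *EBF2*. The summed level of both F-box transcripts was 70.4 and 73.7 FPKM in wild type and 91.6 and 91.1 FPKM in those labelled trm4b-4. Set against the transcript of their target *EIN3*, this sum was 1.06 and 1.08 times as high in wild type and 1.40 and 1.47 times as high in the others. These ratios describe transcripts and say nothing of the EIN3 protein, which the F-box proteins act on. The annotated overlaps of *EBF2* with other genes could affect its level beside *EBF1*, which was not tested.

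**Figure D2:**
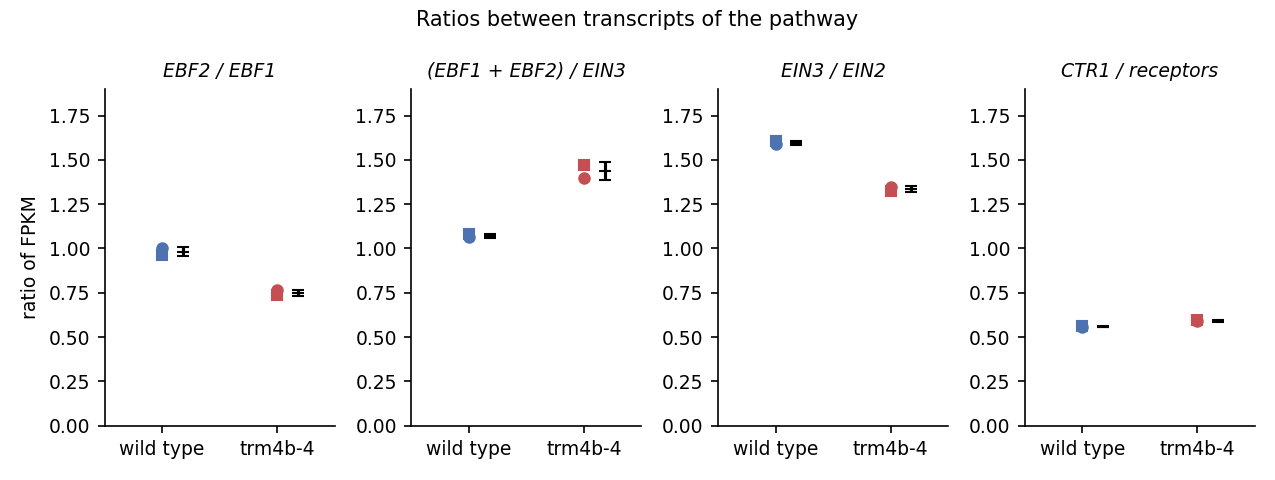
Ratios of FPKM between transcripts of the pathway in each library (blue, wild type; red, trm4b-4; circle, replicate 1; square, replicate 2), with the mean and SD of each genotype in black (n = 2). The *EBF2* to *EBF1* ratio goes from 0.982 to 0.749 and the ratio of both F-box transcripts to *EIN3* goes from 1.07 to 1.44.

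The bases directly upstream of the 3 genes that rose are shown because *EBF2* is a known target of EIN3 and *EBF1* is its closest relative. Each window is the 250 bases before the annotated gene start, read 5′ to 3′ on the gene's strand from the RefSeq sequence of TAIR10.1. Capitals mark ATGTA or its reverse complement TACAT, which together cover both strands and are the core letters described for EIN3 binding sites. The windows lie at chr2:10850798-10851047 (minus strand) for *EBF1*, chr5:8797350-8797599 (minus strand) for *EBF2* and chr5:787178-787427 (plus strand) for *EIN2*.
EBF1: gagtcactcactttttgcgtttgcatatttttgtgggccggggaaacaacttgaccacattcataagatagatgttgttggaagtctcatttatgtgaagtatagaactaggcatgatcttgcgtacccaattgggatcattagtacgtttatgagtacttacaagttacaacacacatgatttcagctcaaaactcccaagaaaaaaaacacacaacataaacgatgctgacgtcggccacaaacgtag
EBF2: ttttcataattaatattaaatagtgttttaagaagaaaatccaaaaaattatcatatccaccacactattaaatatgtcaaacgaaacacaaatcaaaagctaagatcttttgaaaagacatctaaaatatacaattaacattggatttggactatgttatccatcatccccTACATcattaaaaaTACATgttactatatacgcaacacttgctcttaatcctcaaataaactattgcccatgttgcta
EIN2: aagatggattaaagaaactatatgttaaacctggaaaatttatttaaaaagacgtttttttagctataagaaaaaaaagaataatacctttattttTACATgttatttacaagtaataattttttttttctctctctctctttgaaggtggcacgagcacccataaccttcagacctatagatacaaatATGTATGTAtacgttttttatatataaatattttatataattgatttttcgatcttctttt
The *EBF1* window holds no match. The *EBF2* window holds 2, which begin 78 and 64 bases before the gene start, and the *EIN2* window holds 3, which begin 154, 61 and 57 bases before it, the last 2 sharing a base. Of the 10 windows 6 hold a match, and so do 52.0% of the windows of 27443 nuclear protein-coding genes. A match of these letters is a description of the sequence and not a binding site, and a link between matches and levels was not tested.

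*EIN2* (chromosome 5, 787428 to 793404, plus strand), whose protein is the central positive transducer of the pathway, was at 41.7 and 42.5 FPKM in wild type and at 48.6 and 46.7 FPKM in those labelled trm4b-4. Both trm4b-4 libraries were above both wild-type libraries. The means were 42.1 ± 0.607 and 47.7 ± 1.36 FPKM (SD, n = 2 each), a log2 change of 0.17 (SE 0.04, 95% interval 0.09 to 0.26, limma adjusted p = 0.0083). It was the most deeply read of the 10 genes, with 4859 to 5283 fragments per library. The call was lost without wild type replicate 1 (log2 change 0.16, adjusted p = 0.0518), when the mean-variance trend was dropped (0.17, adjusted p = 0.0607) and with trends of GC content and length removed (0.11, adjusted p = 0.0585).

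*EIN3*, the transcription factor at the end of the core pathway, had the highest level of the 10 in both genotypes. It was at 66.2 and 68.3 FPKM in wild type and at 65.5 and 61.9 FPKM in those labelled trm4b-4. The groups did not overlap, yet the trm4b-4 replicates lay 3.61 FPKM apart, further than the 0.712 FPKM between the nearest libraries of the genotypes. The log2 change was -0.08 (95% interval -0.16 to 0.01, limma adjusted p = 0.151), which among the alternatives tried passed the threshold only with voom on fragment numbers (-0.08, adjusted p = 0.0457). It was -0.12 without trm4b-4 replicate 1, -0.04 without trm4b-4 replicate 2 and -0.03 with quantile normalization. The *EIN3* to *EIN2* ratio was 1.59 and 1.61 in wild type and 1.35 and 1.33 in the libraries labelled trm4b-4.

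*CTR1*, the kinase gene between receptors and EIN2, was at 29.1 and 29.9 FPKM in wild type and at 30.2 and 30.5 FPKM in those labelled trm4b-4. The log2 change was 0.04 (95% interval -0.05 to 0.13, limma adjusted p = 0.497), and it turned to -0.01 with trends of GC content and length removed. It was 0.02 without wild type replicate 1 and 0.01 after median-of-ratios rescaling. Relative to the summed receptor transcripts *CTR1* stood at 0.558 and 0.562 in wild type and at 0.589 and 0.596 in the libraries labelled trm4b-4.

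None of the 5 receptor genes was called, and their summed level was 52.2 and 53.2 FPKM in wild type and 51.3 and 51.1 FPKM in those labelled trm4b-4. Taken over the 5 genes, the 95% intervals of the log2 change ran from -0.43 for *ERS2* to 0.22 for *ETR1*. *ETR1* and *ERS1* form subfamily I, whose members keep a canonical histidine kinase domain, and *ETR2*, *ERS2* and *EIN4* form subfamily II, whose kinase domains have diverged. Subfamily I made up 70.0% and 71.2% of the summed level in wild type and 72.4% and 71.9% in the libraries labelled trm4b-4.

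*ETR1*, the founding receptor of the family, was at 13.4 and 13.7 FPKM in wild type and at 14.7 and 14.3 FPKM in those labelled trm4b-4. Its libraries of different genotype did not overlap, and the log2 change was 0.09 (95% interval -0.04 to 0.22, limma adjusted p = 0.251). *ERS1*, the other subfamily I receptor and the most abundant of the 5, was at 23.2 and 24.1 FPKM in wild type and at 22.4 and 22.5 FPKM in those labelled trm4b-4. Its log2 change was -0.07 (95% interval -0.18 to 0.03, limma adjusted p = 0.26), and it was -0.04 without wild type replicate 2. The annotation lets *ETR1* overlap AT1G66345 on its own strand by 38 bases and *ERS1* overlap AT2G40935 on the opposite strand by 56. *ETR1* was 0.576 and 0.570 times as abundant as *ERS1* in wild type and 0.658 and 0.635 times in the libraries labelled trm4b-4, without overlap. Such separation held for 68.4% of all tested genes taken singly.

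*ERS2*, a subfamily II receptor gene induced by ethylene, had the lowest values of the 10 in the libraries labelled trm4b-4. It was at 4.46 and 4.19 FPKM in wild type and at 3.66 and 3.47 FPKM in the others, with means of 4.33 ± 0.196 and 3.56 ± 0.127 FPKM (SD, n = 2 each). The log2 change was -0.22 (SE 0.09, 95% interval -0.43 to -0.01), with an unadjusted p of 0.041 and a limma adjusted p of 0.0972, so the difference did not pass. It did pass with voom (-0.28, adjusted p = 0.0327) and when the mean-variance trend was dropped (-0.22, adjusted p = 0.0451). With 198 to 291 fragments per library, counting alone gives an error of 5.86% to 7.11% of each value.

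*ETR2*, a close relative of *ERS2* that is also induced by ethylene, was at 4.31 and 4.03 FPKM in wild type and at 3.78 and 3.75 FPKM in those labelled trm4b-4. Its log2 change was -0.12 (95% interval -0.32 to 0.09, limma adjusted p = 0.357), or -0.08 without wild type replicate 1, from 240 to 329 fragments per library. *EIN4*, the third subfamily II gene, was at 6.90 and 7.13 FPKM in wild type and at 6.71 and 7.14 FPKM in those labelled trm4b-4. It was the only gene of the 10 whose genotypes overlapped, and its log2 change of -0.02 (95% interval -0.19 to 0.16, limma adjusted p = 0.886) turned to 0.02 without trm4b-4 replicate 1 and to 0.00403 without wild type replicate 2.

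**Figure D3:**
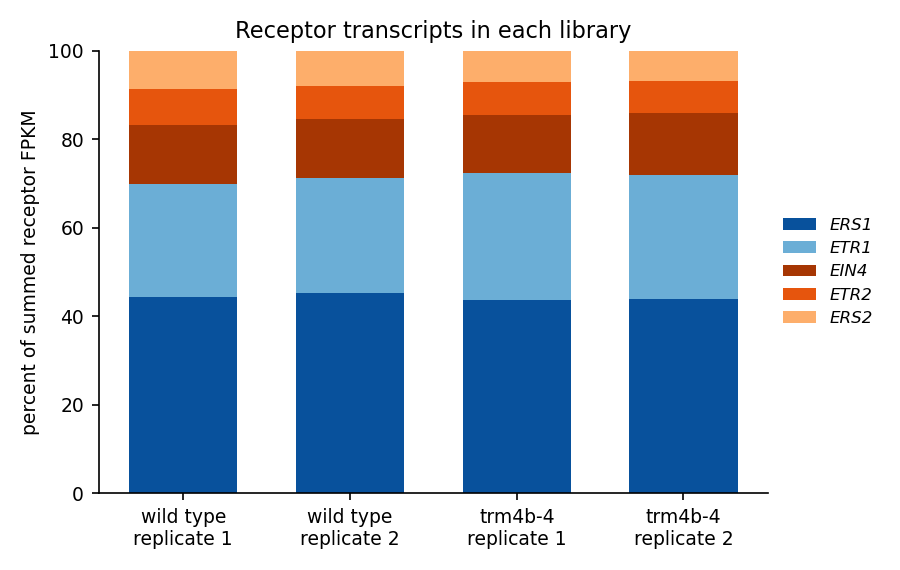
Share of each receptor gene in the summed receptor FPKM of each library, in percent, with subfamily I in blue and subfamily II in brown and orange. *ERS1* takes 43.7% to 45.3% in the 4 libraries, and *ETR1* takes 25.6% and 25.8% in wild type and 28.7% and 27.9% in trm4b-4.

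In order of level, wild type ran *EIN3*, *EIN2*, *EBF1*, *EBF2*, *CTR1*, *ERS1*, *ETR1*, *EIN4*, *ERS2* and *ETR2*. In that order *EBF1* and *EBF2* could not be told apart by their ranges, nor could *ERS2* and *ETR2*, while all other neighbours were separate. In the libraries labelled trm4b-4 the order was *EIN3*, *EBF1*, *EIN2*, *EBF2*, *CTR1*, *ERS1*, *ETR1*, *EIN4*, *ETR2* and *ERS2*, and no neighbours overlapped. *EBF1* and *EIN2* had changed places, with *EBF1* 1.10 times as high as *EIN2* there and 0.864 times as high in wild type. The signalling genes downstream of the receptors were each higher than any single receptor gene in every library. The place of *EBF2* rests on a level that its annotated overlaps could affect.

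**Figure D4:**
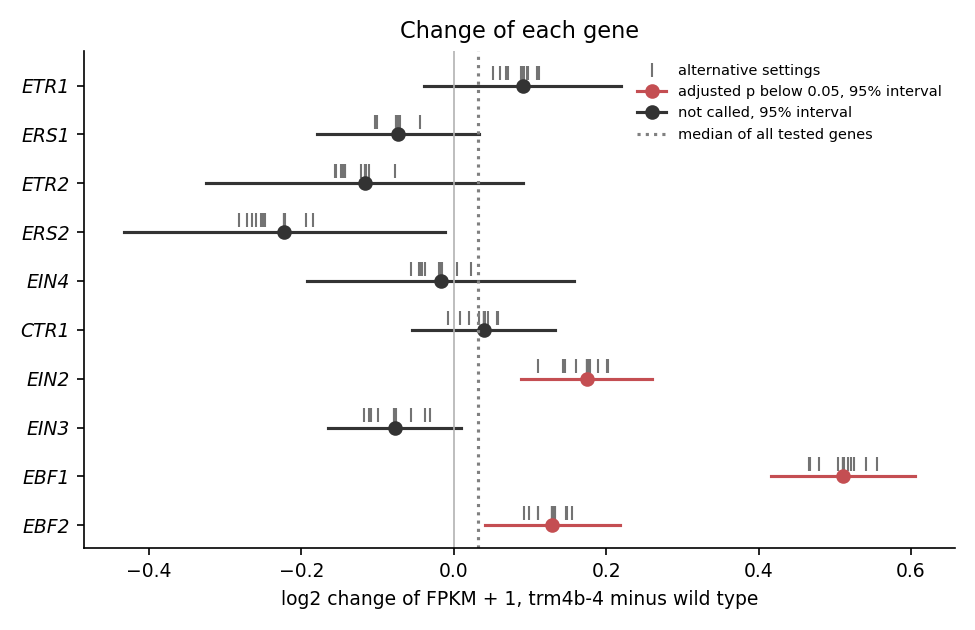
Change of each gene on the log2(FPKM + 1) scale, trm4b-4 minus wild type, with its 95% interval from limma (red, adjusted p below 0.05). Grey ticks are the values under alternative settings and the dotted line is the median of all tested genes, 0.03. The interval of *EBF1*, 0.42 to 0.61, lies apart from those of the other 9 genes.

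The tested genes whose pattern over the 4 libraries was most like that of *EBF1* were AT5G15700, *eIF6A* (AT3G55620) and AT1G02770, at Euclidean distances of 0.0184, 0.0216 and 0.0226 between values of log2(FPKM + 1) centred on each gene's own mean. They were the closest of 19017 genes outside the 10. With 2 libraries of each genotype the likeness rests mostly on the size of the change. *eIF6A*, for example, was at 41.4 and 43.2 FPKM in wild type and at 60.4 and 61.2 FPKM in those labelled trm4b-4.

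Beside the core pathway, a list of 12 other signalling components had 10 tested genes, of which 3 fell and none rose (median log2 change -0.02). A share of 3 of 10 is near the 34.3% of all tested genes that were called. By direction, 19.2% of all tested genes were called higher and 15.1% lower. *EIL1*, the closest relative of *EIN3* and a target of the same F-box proteins, was at 39.7 and 41.7 FPKM in wild type and at 35.1 and 37.2 FPKM in those labelled trm4b-4 (log2 change -0.17, limma adjusted p = 0.0217). The call of *EIL1* was lost when wild type replicate 2 (-0.13, adjusted p = 0.131) or replicate 1 of trm4b-4 (-0.13, adjusted p = 0.1) was left out, with no filter (adjusted p = 0.0528) and when the mean-variance trend was dropped (adjusted p = 0.0935). *ETP1*, an F-box gene whose protein promotes degradation of EIN2, went from 21.3 and 20.9 FPKM to 16.6 and 15.9 FPKM (log2 change -0.36, limma adjusted p = 0.000966). *ARL*, an *ARGOS*-like gene of organ growth, went from 19.7 and 17.2 FPKM to 11.6 and 9.76 FPKM (log2 change -0.74, limma adjusted p = 0.000483). Among the members not called were the copper transporter gene *RAN1*, which supplies the receptors (log2 change 0.05, limma adjusted p = 0.336), the *ETR1* regulator *RTE1* (-0.04, adjusted p = 0.745) and the exoribonuclease gene *XRN4*, also known as *EIN5* (0.08, adjusted p = 0.21).

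Of 4 genes for the shared core of the SCF ligases, 2 fell and none rose (median -0.07). Among all tested genes 34.3% were called, 19.2% higher and 15.1% lower. A list of 4 genes is too short to set its share against these. *RBX1*, the RING subunit, went from 50.4 FPKM in both wild-type libraries to 44.7 and 44.8 FPKM (log2 change -0.17, limma adjusted p = 0.00565). *ASK2*, a SKP1-like adaptor, went from 64.8 and 64.6 to 51.5 and 57.2 FPKM (-0.25, adjusted p = 0.00526). Neither passed once the mean-variance trend was dropped (adjusted p = 0.0512 and 0.0574). The adaptor *ASK1* and the scaffold *CUL1* were at 0.04 each (adjusted p = 0.257 and 0.385).

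In a list of genes that ethylene is known to induce, those that were called mostly fell. Of 13 listed genes 11 were tested, 6 fell and 1 rose, with a median log2 change of -0.45. Of the tested genes in this list 63.6% were called, beside 34.3% of all tested genes. Summed over the 13 genes, the level was 681 and 663 FPKM in wild type and 304 and 303 FPKM in those labelled trm4b-4. *EDF4*, an AP2/B3 transcription factor gene, went from 101 and 97.2 FPKM to 25.0 and 24.2 FPKM (log2 change -1.96, limma adjusted p = 8.65e-09). Its relative *EDF2* went from 234 and 231 to 85.2 and 85.4 FPKM (-1.44, adjusted p = 6.19e-09), and the response factor gene *ERF2* from 98.0 and 96.0 to 26.5 and 26.4 FPKM (-1.84, adjusted p = 7.95e-09). The remaining *EDF* genes, added after their values were seen, were at -1.36 for *EDF1* (adjusted p = 2.57e-08) and at -0.08 for *EDF3* (adjusted p = 0.531). Like *EDF3*, the listed genes *CHI-B* (-0.24, adjusted p = 0.0512), *HEL* (0.08, adjusted p = 0.115) and *PIF3* (0.05, adjusted p = 0.603) were not called. *HLS1*, needed for the apical hook, rose from 2.05 and 1.71 to 2.94 and 2.91 FPKM (0.45, adjusted p = 0.0152), a call that needed wild type replicate 2 (adjusted p = 0.0922 if left out) and both trm4b-4 replicates (0.0551 and 0.0512).

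The rapid stress and touch list moved in the same libraries. All 12 of its genes fell, with a summed level of 1411 and 1416 FPKM in wild type and 238 and 239 FPKM in those labelled trm4b-4. Its part in the results above was not tested. Root hair genes summed to 38.0 to 39.6 FPKM in wild type and 51.8 to 53.7 FPKM in those labelled trm4b-4 (5 of 8 higher), and endodermis genes to 53.6 to 55.0 and 46.5 to 48.6 FPKM (1 of 7 tested lower). Among photosynthesis genes 4 of 7 were higher and 3 lower, with sums of 20039 to 20075 and 20351 to 20546 FPKM. The part of these organ markers in the results on the 10 genes was not tested either. Seed storage genes summed to 2.86 to 3.36 FPKM in wild type and 13.6 to 13.8 FPKM in the others, with *CRU2* at 0 in all 4 libraries. Beside the counts in these lists, 19.2% of all tested genes were called higher and 15.1% lower.

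Of 14 ethylene synthesis genes 9 were tested, and 1 rose and 2 fell (median 0.03). The share called was 33.3%, near the 34.3% of all tested genes. The ACC synthase genes *ACS6* and *ACS11* fell, *ACS6* from 72.5 and 73.2 to 13.1 and 11.7 FPKM (log2 change -2.47, limma adjusted p = 2.47e-08) and *ACS11* by 1.33 on the log2 scale (adjusted p = 4e-05). The ACC oxidase gene *ACO4*, for the last step, rose by 0.39 (adjusted p = 5.14e-06).

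**Figure D5:**
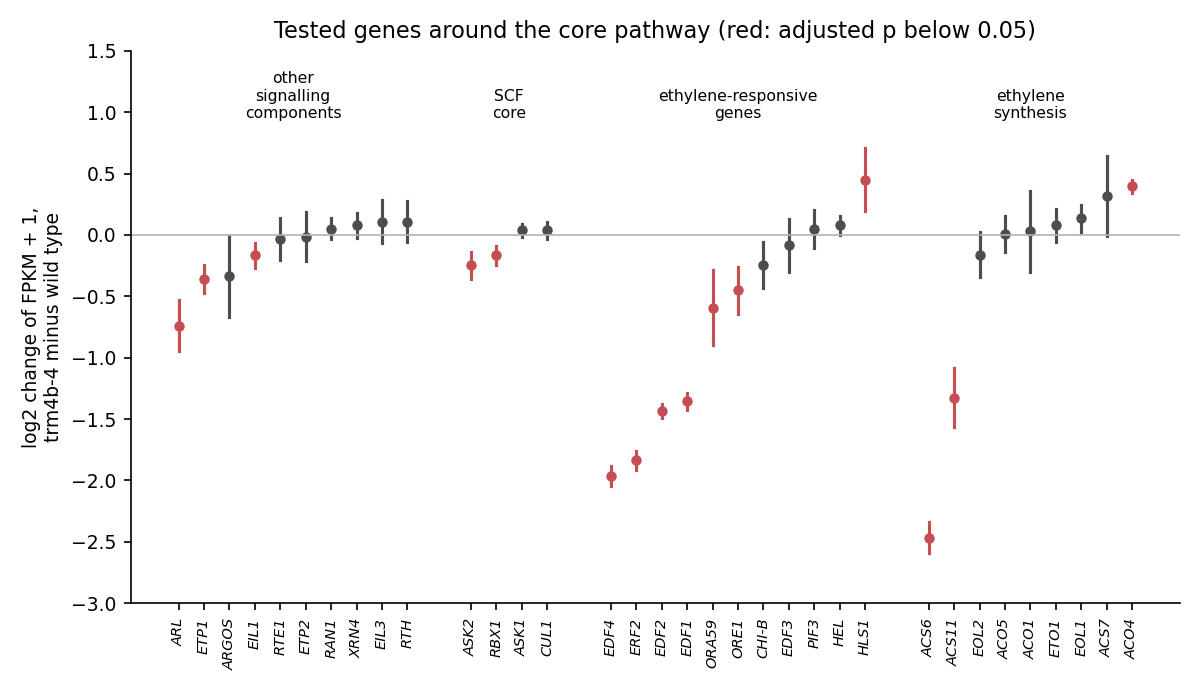
Change on the log2(FPKM + 1) scale, trm4b-4 minus wild type, of the tested genes in 4 lists around the core pathway, with 95% intervals from limma (red, adjusted p below 0.05). The ethylene-responsive genes *EDF4*, *ERF2*, *EDF2* and *EDF1* and the synthesis genes *ACS6* and *ACS11* lie below -1, a fall larger than any change among the 10 core genes.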

How the data were processed

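Poly(A) RNA libraries were made with a directional kit, per the labels' protocols. Per the submitters' processing notes the build was TAIR10, and the tools were Cufflinks 2.1.1, Cuffdiff, HTSeq 0.6.1 and TopHat2 2.0.12. What each tool did, the strand setting and how multiple matches were treated is not given in the sources used here. The deposited values are FPKM, 1 file per library. Library totals and fragment numbers were recovered from the steps of the low values, and all 24892 features above 0 gave whole fragments (within 2e-06 fragments plus a relative 3e-09). Fragment numbers rest on a recovered length, which matched an annotated one only for *ETR1* among the 10 genes. In general, fragment numbers could be off by a whole factor. For each of the 10 genes the length used was the smallest that gave whole fragments. It was also the largest multiple of that length within the longest annotated transcript. Over all features, 3787 had an annotated length, and recovered fragments summed to 101.5% to 101.6% of each library total. Counting errors are 1 divided by the square root of the fragments and leave PCR copies aside.

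The test took genes that reached 1 FPKM in 2 or more libraries and was run on log2(FPKM + 1), which understates changes of low genes, with limma 3.58.1 in R 4.3.3 (mean-variance trend, no covariate, two-sided, Benjamini-Hochberg over 19027 genes). The fit was tested on simulated data. Alternatives were another pseudocount, filter, scaling, fit without trend, voom, nuclear genes only, each library left out, and a replicate block. Same-numbered libraries did not deviate together (correlation -0.04), and the main fit used no pairing. Gene names and positions are those of TAIR10.1. Transcripts of 9 of the 10 genes shared no stretch of 100 bases with another gene in that annotation, and *EBF2* shared such stretches with the genes that overlap it. *ACO3* was dropped from its list because the reference does not give its locus that name. Another ethylene synthesis gene is not reported here and was left out of the counts of its list.

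The members and lists were chosen with earlier results of these data known. Named outside the 10 genes were *TRM4B*, all called other signalling components, and the 3 genes most like the core gene with the smallest adjusted p. From the SCF core, ethylene-responsive and ethylene synthesis lists, up to 3 called genes per direction with the smallest adjusted p were named. This rule was not applied to the stress, organ and seed lists. Markers and genes that were not called are named as examples chosen after their values were seen.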

Additional observations from a re-analysis of the deposited data

How the results depend on the processing

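*EBF1* was called in all 14 alternatives tried, with log2 changes between 0.47 and 0.56. *EIN2* kept its call in 11 of 14 (0.11 to 0.20) and *EBF2* in 7 of 14. The call of *EIN2* was lost with GC and length trends removed (0.11) and without the mean-variance trend (0.17), and without single libraries its change ranged from 0.15 to 0.20. That of *EBF2* was lost after median-of-ratios rescaling (0.10), with GC and length trends removed (0.0923) and without the mean-variance trend (0.13), and without each library in turn it ranged from 0.11 to 0.15. *ERS2* passed with voom (-0.28) and without the trend (-0.22), and *EIN3* with voom (-0.0787). The uncalled change of *EIN4* ranged from -0.0566 to 0.0225 without single libraries, that of *CTR1* was 0.02 to 0.06 without single libraries, 0.00804 after median-of-ratios rescaling and -0.00741 with GC and length trends removed, that of *EIN3* was -0.12 to -0.03 over its 14 alternatives, and that of *EDF3*, over all its alternatives, ranged from -0.17 to 0.00298. Of the 10 genes 1 to 2 were called higher without single libraries, 1 with GC and length trends removed and 1 without the mean-variance trend, where 1 was called lower; voom called 2 lower. With quantile normalization 1 SCF core gene and 2 ethylene-responsive genes were called higher, and without the trend 0 SCF genes were lower. Without a filter 3 synthesis genes were higher and with voom 2, and with the filter of 5 FPKM 1 synthesis gene was lower and 0 ethylene-responsive genes were higher; without single libraries 0 to 1 of these were higher. The receptor sum differed by -1.53 FPKM (trm4b-4 minus wild type) as deposited and by -2.70 FPKM after median-of-ratios rescaling. The cause of these shifts was not tested. Counts of all called genes stayed within 1.5 times of 3648 higher and 2882 lower in the alternatives tried. Same-numbered libraries did not deviate together (correlation -0.04); with the replicate block 3768 genes were higher and 3001 lower, and 3 of the 10 genes were called. The 198 to 291 fragments per library for *ERS2* limit what could be seen of the lowest receptors.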

Other observations

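Listed genes of the pathway that stayed under the filter had these levels. *ERF1*, a direct target of EIN3, was at 0.276 and 0.219 FPKM in wild type and at 0.0475 and 0 FPKM in those labelled trm4b-4, and *ESE1* was at 0 in all 4. The ACC synthase gene *ACS2* was at 0.332 and 0.621 FPKM in wild type and at 0.823 and 0.877 FPKM in those labelled trm4b-4. *ACS4* went from 0.372 and 0.295 to 0.704 and 0.821 FPKM, and *ACS5* from 0.121 and 0.157 to 0.437 and 0.393 FPKM. *ACS9* went from 0.0268 and 0.0893 to 0.387 and 0.153 FPKM. Each of these ACC synthase genes was higher in both trm4b-4 libraries than in both wild-type libraries, but none was tested in the main fit. *ACS8* was at 0.894 and 0.898 FPKM in wild type and at 0.256 and 0.584 FPKM in the others. *EIL2*, a relative of *EIN3*, lay between 0.0794 and 0.151 FPKM, and *OSR1* was listed above 0 only in wild type replicate 2, at 0.0561 FPKM.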
